A study of Homo sapiens with 3 samples.

Results

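The 10 SOX genes described here are SOX2, SOX4, SOX5, SOX6, SOX9, SOX10, SOX11, SOX12, SOX13 and SOX17, chosen by name among the 18418 genes measured. Each was read by 1 probe set that carries its symbol alone in the platform annotation. Transcript levels were determined in 3 independent cultures of C33A, a human cervical carcinoma cell line, each on its own Affymetrix Gene ST array for human transcripts. The cells were untreated and grew exponentially, so there is 1 group, C33A (n = 3), with no second condition and no normal cervical tissue beside it, and the number of arrays limits the precision. Values are log2 intensities normalized by the authors with the Robust Multichip Average method (RMA), and a level is the mean of the 3 arrays. Probes of different genes bind their targets with different strength, so the order of levels between genes is approximate. Arrays correlated with each other at Pearson's r of 0.993 to 0.994 over all probe sets. Since no detection call comes with these values, a level was read against the 95th percentile of 455 protein-coding genes of families that most tissues do not express (olfactory and taste receptors, beta-defensins and keratin-associated proteins). That percentile, 6.43 log2, is called the silent-family bound.

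SOX proteins are transcription factors that carry an HMG box, a domain that enters the minor groove of DNA, bends it and reads a short core close to ACAAT or ACAAAG. They are sorted into classes by the sequence of this box, and members of a class often act on the same sites. Most SOX factors work with a partner protein, such as a POU factor, and mark progenitor cells or direct a lineage. Class B1 (SOX2) maintains pluripotent and neural progenitor cells and class C (SOX4, SOX11, SOX12) acts in neuronal and mesenchymal progenitors. Class D (SOX5, SOX6, SOX13) lacks a transactivation domain and forms dimers through a coiled coil. Class E (SOX9, SOX10) directs cartilage, testis and neural crest derivatives, and class F (SOX17) directs endoderm and blood vessels.

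The 250 bases before the annotated start site are shown for the members of highest level, SOX2 and SOX4, and for the other members on the CHD8 target list, SOX5 and SOX6, as given by RefSeq on GRCh38.p14. Capitals mark the SOX cores ACAAT and ACAAAG on either strand, and the cores do not overlap each other. The windows are chr3:181711675-181711924 on the plus strand for SOX2, chr6:21593501-21593750 on the plus strand for SOX4, chr12:24562492-24562741 on the minus strand for SOX5 and chr11:16738478-16738727 on the minus strand for SOX6, at the outermost of its 5 start sites listed there. The annotated span of SOX5 runs to 24562650, so part of its window lies within that span.
SOX2: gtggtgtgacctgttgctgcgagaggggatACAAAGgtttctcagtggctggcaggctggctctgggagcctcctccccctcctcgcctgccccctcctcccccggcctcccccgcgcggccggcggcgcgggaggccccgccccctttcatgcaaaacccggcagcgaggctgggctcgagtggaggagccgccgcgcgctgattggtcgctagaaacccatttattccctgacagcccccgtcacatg
SOX4: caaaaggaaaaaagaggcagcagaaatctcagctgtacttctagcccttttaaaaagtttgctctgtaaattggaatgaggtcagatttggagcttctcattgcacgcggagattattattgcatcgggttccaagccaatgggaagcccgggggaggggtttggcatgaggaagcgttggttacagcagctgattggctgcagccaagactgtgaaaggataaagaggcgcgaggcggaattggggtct
SOX5: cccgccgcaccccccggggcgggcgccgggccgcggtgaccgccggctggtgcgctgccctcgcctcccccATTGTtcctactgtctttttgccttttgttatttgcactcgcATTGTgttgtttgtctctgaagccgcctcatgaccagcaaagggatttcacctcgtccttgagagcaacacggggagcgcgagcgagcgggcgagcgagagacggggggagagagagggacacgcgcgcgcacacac
SOX6: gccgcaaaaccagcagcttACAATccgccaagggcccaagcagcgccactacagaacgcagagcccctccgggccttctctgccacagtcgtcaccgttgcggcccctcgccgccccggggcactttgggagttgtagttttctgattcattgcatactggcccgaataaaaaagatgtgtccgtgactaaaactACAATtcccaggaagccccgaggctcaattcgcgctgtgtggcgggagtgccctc

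SOX2 and SOX4 were among the most abundant transcripts of these cells, and SOX5 was in the high tertile of all genes. SOX12 was 0.61 log2 above the median gene, and the other members lay near or below it. SOX2, which keeps stem and neural progenitor cells undifferentiated, had levels of 10.93, 10.98 and 10.94 log2 in cultures 1, 2 and 3 (mean 10.95 ± 0.02, SD, n = 3). The cultures hardly differed, and only 498 of all genes had a higher mean, which puts SOX2 at percentile 97.3, the percentage of the other genes with a lower level. SOX4, a class C factor often high in tumours, had 10.60, 10.67 and 10.56 log2 (mean 10.61 ± 0.06, SD, n = 3), at percentile 95.7. Both were in decile 10 of all genes (2 of 10 members, where by construction 1842 of the 18418 genes lie). SOX5, known for its part in cartilage and in cortical neurons, had 8.51, 8.65 and 8.53 log2 (mean 8.56 ± 0.07, SD, n = 3), at percentile 73.2. These 3 members were in the high tertile, above 8.14 log2 (3 of 10 members, where by construction 6139 of the 18418 genes lie), so the share of SOX genes in the high tertile was near that of all genes.

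**Figure D1:**
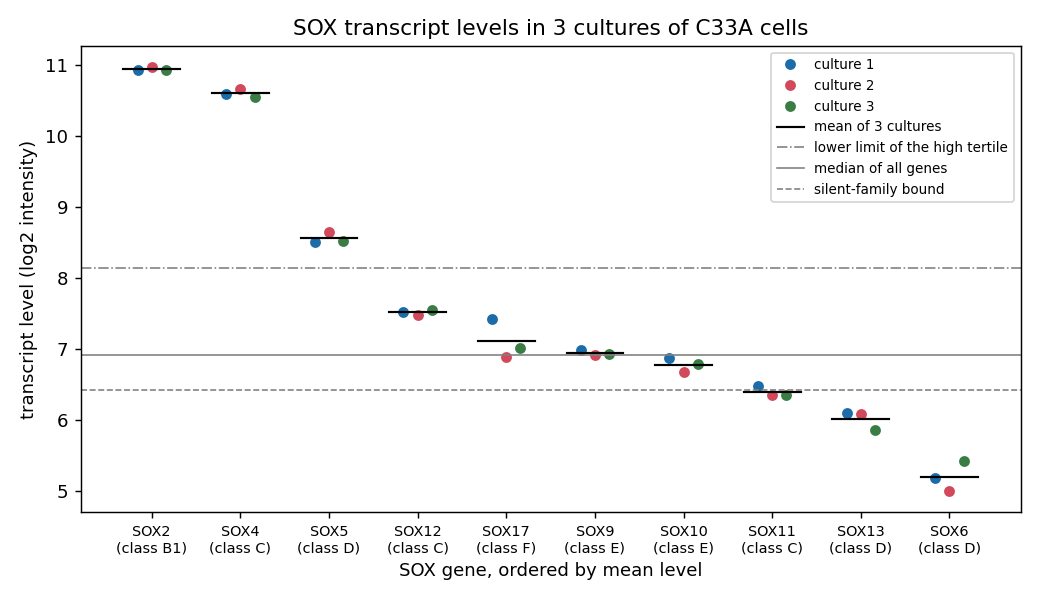
Transcript level of each SOX gene (y axis, log2 intensity) in 3 cultures of C33A cells (points, by culture), with genes ordered by mean level along the x axis and the mean as a black line. SOX2, SOX4 and SOX5 lie above 8.14 log2, the limit of the high tertile, and SOX17 is the gene whose points spread most.

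A middle group of 4 members lay above the silent-family bound on each array but below the high tertile. SOX12, the third class C factor, had levels of 7.52, 7.49 and 7.56 log2 (mean 7.52 ± 0.03, SD, n = 3), at percentile 57.8. SOX17, a regulator of definitive endoderm and of arteries, had 7.43, 6.89 and 7.02 log2 (mean 7.11 ± 0.28, SD, n = 3). Culture 1 was the high one for SOX17, and the gene spread more between cultures than 99.1% of the genes in its decile. SOX9, which directs cartilage formation and testis development, had 6.98, 6.92 and 6.93 log2 (mean 6.94 ± 0.04, SD, n = 3), at percentile 50.4. SOX10, the neural crest factor of melanocytes and glia, had 6.87, 6.68 and 6.79 log2 (mean 6.78 ± 0.10, SD, n = 3), at percentile 48.3. SOX9 and SOX10 thus sat within 0.13 log2 of the median gene, which was at 6.91 log2. The annotated span of SOX10 (chromosome 22, 37972312 to 37984555, GRCh38.p14) lies inside that of POLR2F, a subunit of the RNA polymerases, which was at 10.77 ± 0.05 log2 (SD, n = 3). The gene table used here gives no strand, and the part of POLR2F in the SOX10 signal was not tested.

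SOX11, SOX13 and SOX6 had mean levels below the silent-family bound. SOX11, a class C factor of developing neurons, had 6.48, 6.36 and 6.36 log2 (mean 6.40 ± 0.07, SD, n = 3). Its mean was 0.03 log2 below the bound and 1 of its 3 values was above it, and without culture 3 its mean was above the bound then computed. SOX13, a class D factor known from T cells of the mouse, had 6.10, 6.08 and 5.86 log2 (mean 6.01 ± 0.13, SD, n = 3), at percentile 37.4. SOX6, which acts with SOX5 in cartilage and in red blood cells, had 5.19, 5.00 and 5.42 log2 (mean 5.20 ± 0.21, SD, n = 3), at percentile 25.3. No value of SOX13 or SOX6 reached the bound. In all, 7 of 10 members had a mean above the bound, against 56.3% of all genes, and the median member was at 7.03 log2, against 6.91 log2 for all genes. With the 99th percentile of the silent families (7.88 log2) only SOX2, SOX4 and SOX5 remained above it. With the 95th percentile of the olfactory receptor genes alone (5.38 log2) 9 members were above it, and SOX6 was not. Genes outside the set place both bounds among all genes. SOX3, at 7.88 log2, was at percentile 62.8, and LEF1, at 5.38 log2, was at percentile 28.0.

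In the order of levels (SOX2, SOX4, SOX5, SOX12, SOX17, SOX9, SOX10, SOX11, SOX13, SOX6) the values of 8 of the 9 neighbouring pairs did not overlap over the 3 cultures. The exception was SOX17 and SOX9, with a difference within arrays of 0.17 ± 0.24 log2 (SD, n = 3), which was positive in 2 of 3 arrays (exact sign-flip permutation test, two-sided, p = 0.5, adjusted p = 0.5). SOX2 exceeded SOX4 by 0.34 ± 0.04 log2 (SD, n = 3), and SOX4 exceeded SOX5 by 2.05 ± 0.04 log2 (SD, n = 3), the largest step in the order. The smallest steps without overlap were SOX9 over SOX10, at 0.16 ± 0.06 log2 (SD, n = 3), and SOX2 over SOX4. SOX12 exceeded SOX17 by 0.10 log2 in culture 1 and by 0.60 and 0.53 log2 in cultures 2 and 3. Each of the 8 pairs gave p = 0.25 (exact sign-flip permutation test, two-sided, n = 3, adjusted p = 0.281 over 9 pairs), the smallest p that 3 arrays allow, so the design cannot reach 0.05. The pairs were taken from the order of these same means, so each mean difference was positive by construction. The test therefore cannot support the order. SOX11, SOX13 and SOX6 are below the silent-family bound, so their place in the order is one of signal and may not be one of transcript.

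Within classes B1, C and D, 1 gene stood well above its relatives on each array, while classes E and F had no such gene. Relatives that are not among the 10 were taken from a list of 9 further SOX genes. In class B1, SOX2 exceeded SOX3, a gene of the hypothalamus and pituitary (7.88 ± 0.08 log2, SD, n = 3), by 3.07 ± 0.08 log2 (SD, n = 3). It exceeded SOX1, a neural plate gene (6.82 ± 0.02, SD, n = 3), by 4.12 ± 0.04 log2 (SD, n = 3). In class C, SOX4 exceeded SOX12 by 3.09 ± 0.09 log2 (SD, n = 3). SOX11 was below the silent-family bound, which SOX4 exceeded by 4.18 log2. In class D, SOX5 exceeded the bound by 2.14 log2, while SOX13 and SOX6 were below it, so that no exact difference can be given. SOX5 and SOX6 are close relatives that act together in cartilage. In class E the differences were small, with SOX9 above SOX10 by the 0.16 log2 given above and above SOX8 (6.49 ± 0.15 log2, SD, n = 3) by 0.45 ± 0.14 log2 (SD, n = 3). In class F, SOX18, a gene of blood and lymph vessels (7.72 ± 0.24 log2, SD, n = 3), exceeded SOX17 by 0.61 ± 0.14 log2 (SD, n = 3) and SOX7 (6.78 ± 0.01, SD, n = 3) by 0.94 ± 0.23 log2 (SD, n = 3). Like SOX17, SOX18 had its highest value in culture 1 and its lowest in culture 2 (7.92, 7.46 and 7.79 log2 in cultures 1, 2 and 3), while SOX7 stayed between 6.77 and 6.79. The same order of cultures was seen for SOX9, SOX10 and SOX11, so it was not particular to class F. Of the 9 genes outside the set, 5 had a mean above the bound, near the 56.3% of all genes. None of the 9 was in the high tertile, and SOX30, a germ cell gene, was lowest at 4.13 ± 0.09 log2 (SD, n = 3). Of all 19 SOX genes, 12 were above the bound, against the same 56.3% of all genes.

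**Figure D2:**
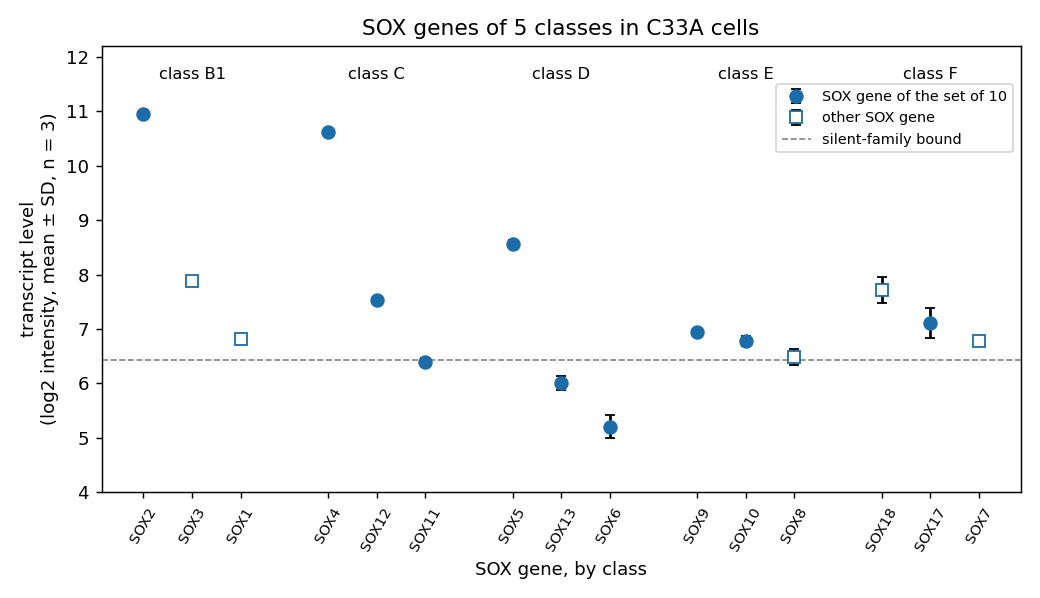
Mean transcript level (y axis, log2 intensity) of SOX genes grouped by class (x axis), with SD over 3 cultures as bars, some smaller than the symbol; filled circles are genes of the set of 10 and open squares other SOX genes. SOX2, SOX4 and SOX5 stand above the other genes of their class, of which SOX11, SOX13 and SOX6 lie below the dashed silent-family bound.

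The spread between cultures was ordinary for most members. The SD exceeded the median SD of genes in the same decile of level for 5 of the 10 members (SOX4, SOX5, SOX6, SOX13 and SOX17). SOX2 had a SD of 0.02 log2 against a median of 0.04 in decile 10, and SOX12 a SD of 0.03 against 0.08 in decile 6. SOX17 had 0.28 log2 against 0.08 in decile 6, and SOX6 had 0.21 against 0.12 in decile 3. Outside the set, SOX18 also spread widely, with 0.24 log2 against a median of 0.07 in decile 7. Percentiles taken on each array alone ran from 97.2 to 97.4 for SOX2, from 49.7 to 56.6 for SOX17 and from 23.3 to 28.5 for SOX6. The SD of the percentile over arrays was lowest for SOX2 (0.08) and SOX4 (0.34). That of SOX5 (0.89) was above that of SOX9 (0.43).

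**Figure D3:**
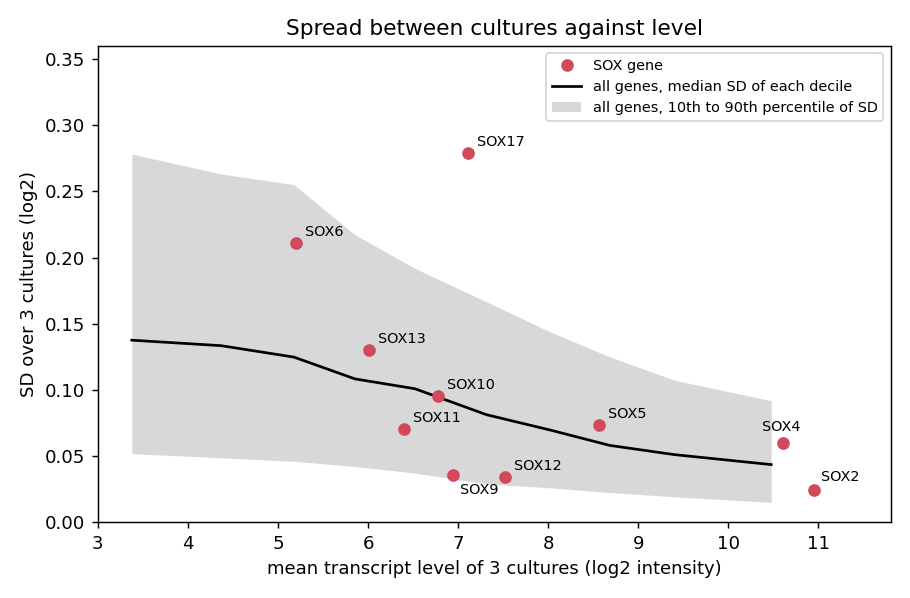
SD over 3 cultures (y axis, log2) against mean transcript level (x axis, log2 intensity) for the SOX genes (red points) and, for all genes, the median SD of each decile of level (line) and the 10th to 90th percentile of SD (grey). Of the 10 genes plotted, SOX17, with a SD of 0.28 log2, lies above the grey band.

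Genes that are related to SOX factors, act with them or are known to follow them were at high level in a few cases only. Of 69 genes on 8 lists, 27 had a mean above the bound, against 56.3% of all genes. The 69 include relatives, namely 9 SOX genes outside the set and 3 HMG-box factors of Wnt signalling. In the SOX2 pluripotency list 4 of 9 measured genes were above it. SALL4, a zinc finger factor of stem cells, was at 10.38 ± 0.06 log2 and LIN28B, which blocks let-7 maturation, at 8.13 ± 0.04 (SD, n = 3 each). UTF1 was at 7.82 ± 0.11, FGF4, a growth factor gene controlled by SOX2 in embryonic cells, at 7.32 ± 0.13, and the stem cell gene ZFP42 was lowest at 3.83 ± 0.11 (SD, n = 3 each). The median of that list was 5.35 log2, against 6.91 log2 for all genes. The probe sets of POU5F1 and NANOG also name pseudogenes or other genes, so both were left out.

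Among 8 POU factors, 4 were above the bound, against 56.3% of all genes. The highest were POU3F3 at 7.70 ± 0.04 and POU3F1 at 7.57 ± 0.21 log2 (SD, n = 3 each), both neural POU genes. Their relatives POU3F2 and POU3F4 were below the bound, at 6.38 ± 0.17 and 6.37 ± 0.24 log2 (SD, n = 3 each). Each of these had 1 of 3 values above it. POU6F1 was at 6.91 ± 0.12 and POU2F2 at 6.64 ± 0.10 log2 (SD, n = 3 each), and POU4F1, a sensory neuron factor, was lowest at 5.65 ± 0.17 (SD, n = 3). None of them was in the high tertile. Of the HMG-box factors of Wnt signalling, TCF7L1 was at 8.28 ± 0.13 and TCF7L2 at 7.93 ± 0.09 log2, while LEF1 was at 5.38 ± 0.21 (SD, n = 3 each).

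Of 9 neural progenitor genes and class C targets, 3 were above the bound, against 56.3% of all genes. TEAD2, a Hippo pathway factor that class C SOX proteins activate in the mouse, was at 9.38 ± 0.06 log2, the RNA-binding protein gene MSI1 at 8.49 ± 0.04 and the Notch target HES5 at 7.11 ± 0.04 (SD, n = 3 each). PAX6 and NES, both neural progenitor genes, were at 4.93 ± 0.09 and 5.87 ± 0.13 log2 (SD, n = 3 each), and DCX, a microtubule protein gene of young neurons, was lowest at 4.28 ± 0.03 (SD, n = 3). Beside a high SOX2 level, the neural genes on this list were of mixed level, with a median of 5.87 log2.

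Cartilage genes known to follow SOX9, SOX5 and SOX6 were above the bound in 4 of 11 cases, against 56.3% of all genes. The fibrillar collagen gene COL11A1 was highest, with 9.67, 10.04 and 9.64 log2 (mean 9.78 ± 0.22, SD, n = 3), and COL9A3 was at 7.68 ± 0.11 (SD, n = 3). COL2A1, the main collagen of cartilage, was at 6.92 ± 0.07 and COL9A2 at 6.76 ± 0.11 log2, and the link protein gene HAPLN1 was lowest at 2.82 ± 0.18 (SD, n = 3 each). Of 10 melanocyte and glia genes known to follow SOX10, 1 was above the bound, against the same 56.3%. It was MITF, the melanocyte regulator, at 6.63 ± 0.16 log2, while the pigment enzyme gene TYR was lowest at 2.91 ± 0.09 (SD, n = 3 each). The median of that list, 4.66 log2, was the lowest of the 8 lists, against 6.91 log2 for all genes. Of 10 endoderm genes that go with SOX17, 4 were above the bound, against the same 56.3%. They were the pioneer factors FOXA1 at 7.49 ± 0.15 and FOXA2 at 6.65 ± 0.08, GATA6 at 7.07 ± 0.14 and GSC at 6.87 ± 0.25 log2 (SD, n = 3 each). AFP, a fetal liver gene, was lowest at 3.50 ± 0.05 (SD, n = 3).

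**Figure D4:**
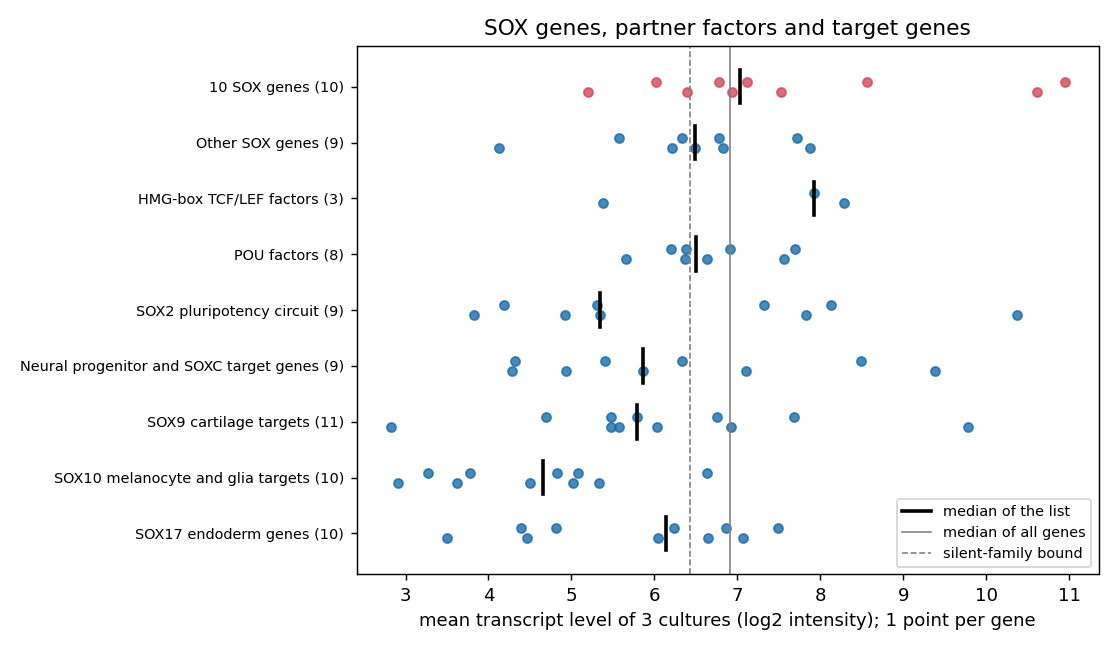
Mean transcript level over 3 cultures (x axis, log2 intensity) of the 10 SOX genes (red) and of genes on 8 lists of relatives, partners and targets (blue, 1 point per gene, number of genes in brackets), with the median of each list as a black bar. The SOX set has a median of 7.03 log2 and the melanocyte and glia list a median of 4.66 log2.

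Markers of cell types in which single SOX genes are known to act were mostly low, where 56.3% of all genes were above the bound. Of the 6 endothelial markers, the setting of class F genes, CLDN5 was above the bound, while PECAM1 and CDH5, which define that cell type, were at 3.58 ± 0.05 and 5.07 ± 0.15 log2 (SD, n = 3 each). Of 5 epithelial markers, KRT18 alone was above the bound, at 7.75 ± 0.11 log2, and EPCAM and CDH1 were at 4.52 ± 0.29 and 4.95 ± 0.09 (SD, n = 3 each), so the defining epithelial markers were low in a line of carcinoma origin. The squamous keratin KRT14 was at 6.86 ± 0.08 and KRT5 at 5.03 ± 0.18 log2 (SD, n = 3 each). Of 5 fibroblast markers COL1A1 was above the bound, with DCN and LUM at 3.10 ± 0.07 and 2.52 ± 0.14 log2 (SD, n = 3 each). Of 4 leukocyte markers PTPRC, at 8.82 ± 0.11 and in the high tertile, and CD68, at 6.90 ± 0.06 log2 (SD, n = 3 each), were above it. The T cell gene CD3E was at 4.59 ± 0.16 (SD, n = 3). The part of these cell types in the SOX levels was not tested.

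One question of the study was which promoters the chromatin remodeller CHD8 binds in C33A cells and how active those genes are. SOX4, SOX5 and SOX6 are on the list of CHD8 target genes, those with promoters enriched in both ChIP-chip experiments (3 of 10 members, against 9.63% of all measured genes). They lie in deciles 10, 8 and 3 of transcript level, so the listed members span from a very abundant transcript to one below the silent-family bound. Over all targets, the paper reports that most were transcribed at medium or high level. These 3 members do not describe the list as a whole. SOX5 and SOX6 are the longest genes of the set, with annotated spans of 1033 and 772 kb. SOX2, the member of highest level, is not on the list. Its gene (chromosome 3, 181711925 to 181714436) lies inside the annotated span of the long noncoding RNA gene SOX2-OT (181056680 to 181742228), which is on the list and whose own level is not analysed here. None of the 9 SOX genes outside the set is on the list. Absence from the list does not show absence of CHD8, and with 10 genes the share was not tested.

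Promoter sequences of RefSeq matched 6 of the 10 members (SOX2, SOX4, SOX5, SOX6, SOX12 and SOX13) with 10 start sites in all, each as 250 bases before and 50 bases after the start. SOX2 and SOX4, the members of highest level, did not have the promoters richest in CpG. The ratio of observed to expected CpG was 0.667 for SOX2 and 0.485 for SOX4, against a median of 0.579 over 35116 promoters, and their GC content was 63.3% and 49.3%, against a median of 58.7%. SOX12, in the middle of the order of levels, had a ratio of 1.12 and a GC content of 80.3%, more GC than 97.8% of promoters. SOX5 had a ratio of 0.958 and SOX13 a ratio of 0.597. Of the 5 start sites of SOX6 the outermost had a ratio of 0.818, while the other 4 ran between 0 and 0.175, and the array values do not tell which start site was in use.

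The E2F core GCGGGAA was searched on both strands, since the study is about E2F-dependent genes. Its reverse form, TTCCCGC, was found once among these windows, beginning 32 bases after the outermost start site of SOX6, and 6.55% of all promoters hold the motif on either strand. The SOX core ACAAT lay in the windows of SOX5 and SOX6, and 27.4% of all promoters hold it. In SOX5 both copies are in the reverse form ATTGT, beginning 179 and 137 bases before the start site used. The copy at 137 bases lies within the annotated span of SOX5. At the outermost start site of SOX6 the copies begin 231 and 55 bases before it. The core ACAAAG lay 220 bases before the start of SOX2 and at the innermost start site of SOX6, and 16.1% of all promoters hold it. No copy of these 3 motifs was in the windows of SOX4, SOX12 and SOX13. A match describes the letters in the window and no match says only that they are not there.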

How the data were processed

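Labelled DNA made from RNA of 3 independent C33A cultures was put on Affymetrix Gene ST arrays for human transcripts. The authors extracted the scans with the Affymetrix software, normalized them by RMA and processed them with oneChannelGUI. The deposited log2 intensities hold 1 value for each probe set on each array. RMA is named in the submitters' processing notes, with its version not given in the sources used here.

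Probe sets with 1 symbol (19460 of 33297) were joined by gene identifier, given their current RefSeq symbols (GRCh38.p14) and averaged per gene, which gave 18418 genes (18389 found in that table). Probe sets with several symbols (1754) or no gene listed there (12083) were not used. The silent-family bound used the protein-coding members of 4 families. CHD8 target genes (1965) were matched by accession, symbol or synonym, and 1774 were measured. Neighbours in the order of levels were compared with the exact sign-flip permutation test on differences within arrays, with Benjamini-Hochberg adjustment. Lists were described by counts and medians, with no set test. The genes named were the 10 members and, from each list, the highest, the lowest and up to 4 above the bound; further list genes and markers named were chosen after their values were seen. The members and lists were chosen with earlier results of these data known. A comparison of HMG-box protein sequences was planned and is not analysed here. Alternatives left out each array, took the highest probe set, repeated quantile normalization, and changed the bound and the genes ranked. The ranking was tested on simulated data, and the exact test was checked on small made-up examples only. Computations used Python 3.11.15, NumPy 2.4.6, pandas 2.3.3 and matplotlib 3.10.9.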

Additional observations from a re-analysis of the deposited data

How the results depend on the processing

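Of 36 alternative values of the counts and medians, 32 stayed within the limits set for the same result and 4 did not. Each member has 1 probe set, so taking the highest probe set could not change the member levels or the neighbouring pairs. Quantile normalization was repeated on values already normalized by RMA. With the bound at the 99th percentile of the silent families (7.88 log2), 3 members and 7 of the 69 list genes were above it, against 7 members and 27 list genes at the 95th percentile. With olfactory receptor genes alone (5.38 log2), 45 list genes were above it, and 9 members, a change within the limits set. Among all genes, a level of 7.88 log2 (SOX3) was at percentile 62.8 and a level of 5.38 log2 (LEF1) at percentile 28.0. The median percentile of the members was 51.4, and 48.7 when ranked among protein-coding genes only. Leaving out each culture in turn gave 7 to 8 members and 27 to 29 list genes above the bound, and SOX11 was the member that changed side, without culture 3. Without culture 2, all 9 neighbouring pairs in the order of levels had values that did not overlap, against 8 with all arrays. The count of members in the high tertile was 3 in each alternative tried. Of 120 alternative levels and percentiles of single members, 8 percentiles moved by more than the SD between arrays. No paired analysis was possible because there is no second group whose samples could be paired. Signal over background limits SOX11, SOX13 and SOX6, for which a low level and no expression cannot be told apart. It also limits SOX12, SOX17, SOX9 and SOX10, which were below the 99th percentile of the silent families. The highest gene of those families was at 8.84 log2, above SOX5 and below SOX4 and SOX2.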
